A study of Mus musculus with 12 samples.

Results

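Transcripts of 8 inhibitory receptors and of the nuclear factor Tox were followed in CD8+ T cells sorted from mouse tumours. The receptors were Pdcd1, Havcr2, Lag3, Tigit, Ctla4, Cd160, Btla and Vsir. The 9 genes were taken by symbol from a deposited table of 56980 genes, each symbol matched 1 row, and all 9 were among the 20411 genes that passed the filter on low counts. Cells that excluded the dead-cell dye DAPI and carried CD45.2 and CD8 were sorted from tumours of wild type C57BL/6J mice into asGM1- and asGM1+ fractions. The name asGM1 is commonly used for the glycolipid asialo-GM1. Panc02, the line that formed the tumours, is a mouse pancreatic cancer line, used either as such or as Panc02 expressing Flt3L, the cytokine that drives dendritic cell development. The 4 groups were Panc02 asGM1-, Panc02 asGM1+, Flt3L Panc02 asGM1- and Flt3L Panc02 asGM1+, with 3 RNA-seq libraries each. CD8 is also found on some dendritic cells, and the stated gate names no T cell receptor component. The labels give neither the age of the mice nor whether libraries of 1 group came from separate mice, so p-values measure only the spread between these libraries, which may be technical.

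Many inhibitory receptors are carried by activated T cells and are turned on by antigen, and some are also found on naive or resting T cells. Such receptors dampen signalling when they meet a ligand on another cell. PD-1 and CTLA-4 act against signals from the T cell receptor and CD28, TIM-3 and LAG-3 act through other adaptors, TIGIT competes with an activating receptor for shared ligands, and CD160 and BTLA both bind HVEM. TOX is a DNA-binding factor known for its part in the programme that chronically stimulated CD8+ T cells in tumours adopt, a state in which several of these receptors are displayed together.

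Upstream sequence of the 4 members whose mRNA differed between the asGM1 fractions in the average of both tumour types is shown first, as context for those genes. The RefSeq promoter table (GRCm38.p6, which is not the build used for the counts) held 7 of the 9 members, and Lag3 and Tox were not among them. Each run covers the 200 bases from 250 to 51 bases before an annotated start and reads 5' to 3' on the strand of the gene. The windows are chr1:94052604-94052803 on the minus strand for Pdcd1, chr11:46454681-46454880 on the plus strand for Havcr2, chr3:96829402-96829601 and chr3:96814572-96814771 on the minus strand for 2 starts of Cd160, and chr16:45224087-45224286 on the plus strand for Btla. Capitals mark matches, on either strand, to 6 short motifs of factors active in T cells.
Pdcd1: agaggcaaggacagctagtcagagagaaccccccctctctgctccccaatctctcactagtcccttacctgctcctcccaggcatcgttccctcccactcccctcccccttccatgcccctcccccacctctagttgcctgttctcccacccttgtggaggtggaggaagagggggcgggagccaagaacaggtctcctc
Havcr2: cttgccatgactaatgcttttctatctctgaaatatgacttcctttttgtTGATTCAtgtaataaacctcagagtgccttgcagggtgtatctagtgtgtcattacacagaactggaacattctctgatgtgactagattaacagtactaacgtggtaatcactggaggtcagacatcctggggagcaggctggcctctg
Cd160, first start: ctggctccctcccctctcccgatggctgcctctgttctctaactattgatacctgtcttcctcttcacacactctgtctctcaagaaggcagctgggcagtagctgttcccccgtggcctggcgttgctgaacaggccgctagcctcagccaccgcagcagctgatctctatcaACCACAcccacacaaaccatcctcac
Cd160, second start: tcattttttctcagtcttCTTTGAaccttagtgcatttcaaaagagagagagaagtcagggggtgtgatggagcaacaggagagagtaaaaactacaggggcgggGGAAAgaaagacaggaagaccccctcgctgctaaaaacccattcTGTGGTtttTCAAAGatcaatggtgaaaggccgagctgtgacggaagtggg
Btla: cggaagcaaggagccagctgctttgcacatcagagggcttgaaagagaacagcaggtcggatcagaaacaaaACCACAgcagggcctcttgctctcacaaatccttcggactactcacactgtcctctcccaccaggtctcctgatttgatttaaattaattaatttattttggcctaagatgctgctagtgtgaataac
The motifs searched were CTTTGA for TCF/LEF factors, GGAAA for NFAT, TGANTCA for AP-1, TGTGGT for RUNX, AGGTGTG for T-box factors and AAAGGTCA for NR4A. Pdcd1 held none of them, Havcr2 held 1 AP-1 match, Btla held 1 RUNX match, and Cd160 held 1 RUNX match at the first start. The second Cd160 start held 2 TCF/LEF matches, 1 NFAT match and 1 RUNX match. Among 32851 promoter windows of the same length, a TCF/LEF match was present in 11.8%, NFAT in 48.5%, AP-1 in 5.57%, RUNX in 11.6%, T-box in 4.19% and NR4A in 1.08%. A match describes these letters alone.

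Levels are given as CPM, that is, deposited counts per 1000000 counts of a library total scaled with edgeR's TMM method. No transcript length enters CPM, so levels are compared between libraries and never between genes. In bulk RNA, fewer cells of a type and less RNA per cell cannot be told apart. Library totals lay between 98663008 and 102896605 counts, and the lowest count of any member in any library was 598. The lineage markers Cd3e and Cd8a had group means of 821 to 1323 CPM and 1787 to 2385 CPM. Adjusted p-values come from the quasi-likelihood test of edgeR, adjusted by the Benjamini-Hochberg method over all 20411 genes, a gene is called where that value is under 0.05, and differences are log2 fold changes ± standard error.

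**Figure D1:**
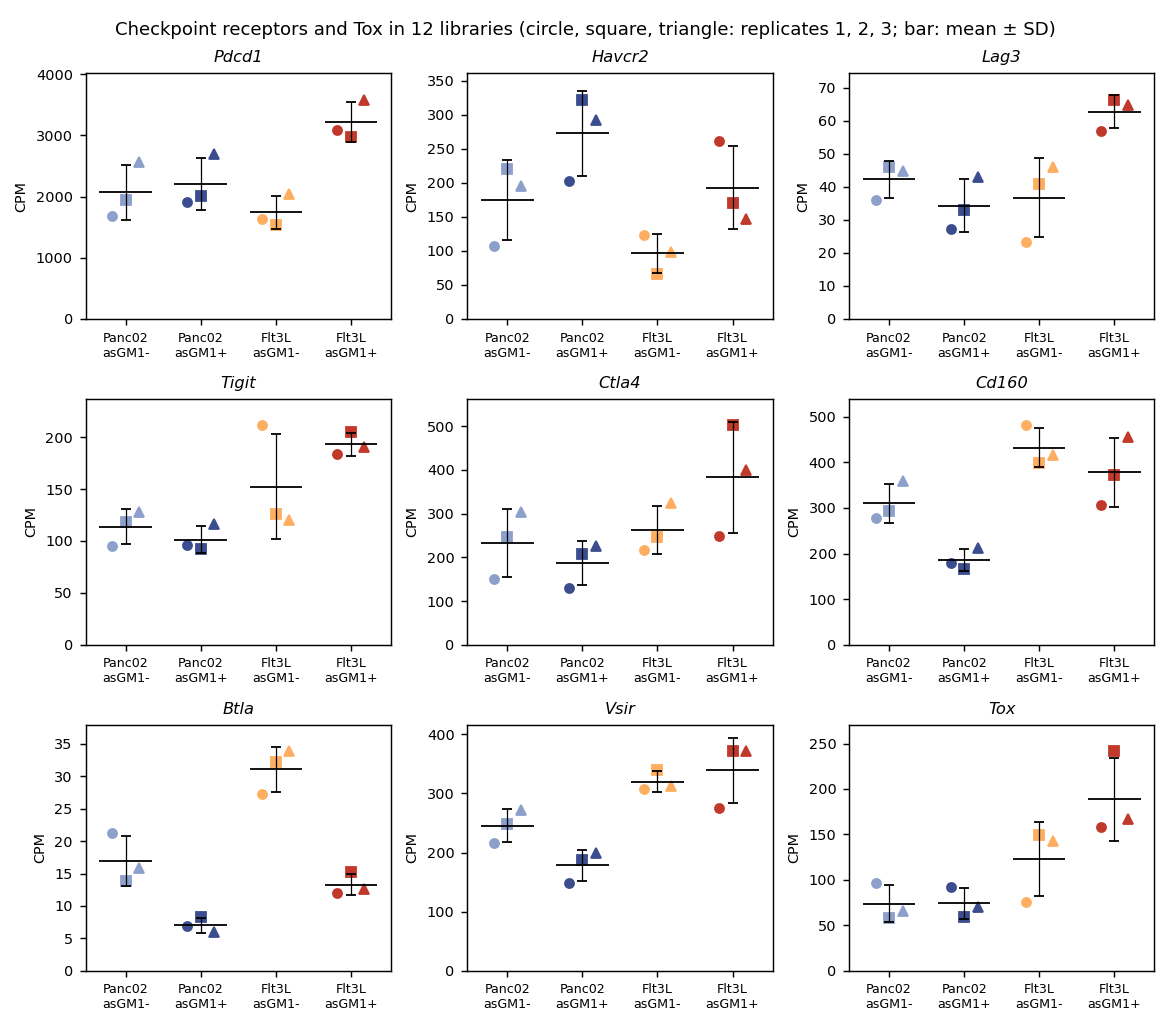
Level of each member in the 12 libraries, in TMM-scaled CPM on a linear axis from 0, by group. Each symbol is 1 library (circle, square and triangle for replicates 1, 2 and 3), the long bar is the group mean and the error bar its SD; the Btla panel shows both asGM1+ groups below the asGM1- group of the same tumour, and the Pdcd1 panel shows the Flt3L Panc02 asGM1+ libraries above the other 9.

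Pdcd1 encodes PD-1, whose tail recruits the phosphatase SHP2. Its levels were 1689, 1946 and 2567 CPM in Panc02 asGM1- cells, 1908, 2016 and 2694 CPM in Panc02 asGM1+ cells, 1640.2, 1543 and 2044 CPM in Flt3L Panc02 asGM1- cells, and 3082, 2977 and 3585 CPM in Flt3L Panc02 asGM1+ cells. The last group lay above all other libraries, and the other 3 groups overlapped. In Flt3L Panc02 tumours Pdcd1 was higher in asGM1+ cells by 0.88 ± 0.18 (edgeR adjusted p = 0.0129). In Panc02 tumours the difference between fractions was 0.09 ± 0.18 (edgeR adjusted p = 0.956). Without the Flt3L Panc02 asGM1- library numbered 2, the adjusted p of the Flt3L Panc02 difference was 0.062.

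Havcr2 encodes TIM-3, a receptor for galectin-9 and other ligands found on activated CD8+ T cells and on myeloid cells. Its levels were 108, 221 and 196 CPM in Panc02 asGM1- cells, 203, 323 and 293 CPM in Panc02 asGM1+ cells, 124, 66.1 and 99.0 CPM in Flt3L Panc02 asGM1- cells, and 262, 171 and 146 CPM in Flt3L Panc02 asGM1+ cells. The fractions overlapped in Panc02 tumours, where the asGM1+ library was the higher at every replicate number, and did not overlap in Flt3L Panc02 tumours. The differences were 0.64 ± 0.31 in Panc02 tumours and 1.005 ± 0.314 in Flt3L Panc02 tumours (edgeR adjusted p = 0.531 and 0.0717). Neither was called in this fit, while their average of 0.82 ± 0.22 was (edgeR adjusted p = 0.0494). DESeq2 called the Flt3L Panc02 difference (adjusted p = 0.0103). Of the 9 members, Havcr2 was the one whose fitted value was lower in Flt3L Panc02 than in Panc02 tumours in both fractions. It was at -0.86 ± 0.31 in asGM1- cells (edgeR adjusted p = 0.149) and -0.50 ± 0.31 in asGM1+ cells (edgeR adjusted p = 0.356), and neither difference was called in this fit. DESeq2 called the asGM1- difference (adjusted p = 0.0473). Scaling to T cell identity genes, described with the comparisons, called the asGM1+ difference (-0.96, edgeR adjusted p = 0.0415).

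Lag3 encodes a CD4-related receptor for MHC class II. Its levels were 35.9, 46.1 and 44.9 CPM in Panc02 asGM1- cells, 27.2, 32.9 and 43.0 CPM in Panc02 asGM1+ cells, 23.2, 41.0 and 45.9 CPM in Flt3L Panc02 asGM1- cells, and 57.0, 66.5 and 64.8 CPM in Flt3L Panc02 asGM1+ cells. The Flt3L Panc02 asGM1+ libraries stood above the other 9, and the other groups overlapped. Between tumours, Lag3 was higher in Flt3L Panc02 asGM1+ cells by 0.87 ± 0.23 (edgeR adjusted p = 0.0495), just under the threshold. Between fractions of Flt3L Panc02 tumours it differed by 0.77 ± 0.23 (edgeR adjusted p = 0.0634) and in Panc02 tumours by -0.30 ± 0.23 (edgeR adjusted p = 0.778), neither of them called in this fit. DESeq2 called the Flt3L Panc02 difference (adjusted p = 0.0138). The Flt3L Panc02 asGM1- library numbered 1 was the lowest of all 12 for this gene.

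Tigit encodes the inhibitory receptor that shares PVR and nectin ligands with the activating receptor CD226. Its levels were 94.9, 118 and 128 CPM in Panc02 asGM1- cells, 95.8, 91.8 and 116 CPM in Panc02 asGM1+ cells, 211, 126 and 121 CPM in Flt3L Panc02 asGM1- cells, and 184, 205 and 190.3 CPM in Flt3L Panc02 asGM1+ cells. Among asGM1+ cells the tumour types did not overlap, and Tigit was higher in Flt3L Panc02 tumours by 0.93 ± 0.20 (edgeR adjusted p = 0.0233). Within Flt3L Panc02 tumours, 1 asGM1- library (number 1) was the highest of all 12, and the difference between fractions was 0.34 ± 0.20 (edgeR adjusted p = 0.311). Without that library the difference was 0.65 with an edgeR adjusted p of 0.0206.

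Ctla4 encodes the receptor that outcompetes CD28 for CD80 and CD86 and is also abundant in regulatory T cells. Its levels were 150.1, 247 and 303 CPM in Panc02 asGM1- cells, 130.4, 207 and 225 CPM in Panc02 asGM1+ cells, 217, 247 and 325 CPM in Flt3L Panc02 asGM1- cells, and 248, 502 and 399 CPM in Flt3L Panc02 asGM1+ cells. Libraries numbered 1 were the lowest of each group, and neighbouring groups in the order of the means all overlapped. The difference between tumours in asGM1+ cells was 1.03 ± 0.31 (edgeR adjusted p = 0.0691), the second largest of the members in size, and it was not called. The asGM1+ library was the lower at all 3 replicate numbers in Panc02 tumours, and the fractions overlapped in both tumour types. Fitted differences between fractions were -0.31 ± 0.31 and 0.54 ± 0.31 (edgeR adjusted p = 0.853 and 0.294).

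Btla encodes a binding partner of HVEM on naive T cells, B cells and dendritic cells, and it was the 1 member called between fractions in both tumour types. Its levels were 21.2, 13.8 and 15.8 CPM in Panc02 asGM1- cells, 6.83, 8.23 and 5.98 CPM in Panc02 asGM1+ cells, 27.2, 32.2 and 33.9 CPM in Flt3L Panc02 asGM1- cells, and 12.05, 15.2 and 12.6 CPM in Flt3L Panc02 asGM1+ cells. Within each tumour type all asGM1+ libraries lay below all asGM1- libraries, and the highest group mean was 4.43 times the lowest. Btla was lower in asGM1+ cells, at -1.27 ± 0.19 in Panc02 tumours and -1.23 ± 0.18 in Flt3L Panc02 tumours (edgeR adjusted p = 0.00638 and 0.00263). Between tumours it was higher in Flt3L Panc02 cells by 0.87 ± 0.18 in the asGM1- fraction (edgeR adjusted p = 0.0275) and by 0.92 ± 0.18 in the asGM1+ fraction (edgeR adjusted p = 0.018). Both differences between fractions were called with each library left out in turn, whereas the Panc02 difference had an adjusted p of 0.0596 when only its own 6 libraries were fitted and 0.0693 without both Panc02 libraries numbered 1. Under scaling to T cell identity genes, described with the comparisons, the Panc02 difference was -1.11 with an edgeR adjusted p of 0.124.

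Cd160 encodes a lipid-anchored binding partner of HVEM found on cytotoxic lymphocytes. Its levels were 277, 294 and 358 CPM in Panc02 asGM1- cells, 180.0, 166 and 213 CPM in Panc02 asGM1+ cells, 481, 399 and 416 CPM in Flt3L Panc02 asGM1- cells, and 306, 372 and 455 CPM in Flt3L Panc02 asGM1+ cells. The Panc02 asGM1+ libraries were the lowest 3 of the 12. Between tumours in asGM1+ cells Cd160 was higher in Flt3L Panc02 by 1.02 ± 0.16 (edgeR adjusted p = 0.00752). Between fractions the difference was -0.73 ± 0.16 in Panc02 tumours (edgeR adjusted p = 0.061), and with the replicate number as a block it was called (edgeR adjusted p = 0.0392). In Flt3L Panc02 tumours the difference was -0.19 ± 0.16 (edgeR adjusted p = 0.479).

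Vsir encodes VISTA, a receptor of the B7 family carried by myeloid cells and resting T cells. Its levels were 217, 248 and 272 CPM in Panc02 asGM1- cells, 149, 188 and 199.3 CPM in Panc02 asGM1+ cells, 307, 339.9 and 312 CPM in Flt3L Panc02 asGM1- cells, and 275, 371 and 371 CPM in Flt3L Panc02 asGM1+ cells. All 6 Flt3L Panc02 libraries lay above all 6 Panc02 libraries. The test called this difference in asGM1+ cells, at 0.92 ± 0.15 (edgeR adjusted p = 0.00771), and not in asGM1- cells, at 0.38 ± 0.15 (edgeR adjusted p = 0.166), and the test of the difference between these gave an edgeR adjusted p of 0.253. Between fractions Vsir differed by -0.46 ± 0.15 in Panc02 tumours, where the asGM1+ library was the lower at every number, and by 0.09 ± 0.14 in Flt3L Panc02 tumours (edgeR adjusted p = 0.253 and 0.762).

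Tox encodes the nuclear factor itself. Its levels were 96.9, 58.4 and 66.0 CPM in Panc02 asGM1- cells, 92.4, 59.5 and 70.5 CPM in Panc02 asGM1+ cells, 75.8, 149 and 143 CPM in Flt3L Panc02 asGM1- cells, and 158, 241 and 167 CPM in Flt3L Panc02 asGM1+ cells. The Flt3L Panc02 asGM1+ libraries were the highest 3, and in both Panc02 fractions the library numbered 1 was the highest. Tox was higher in Flt3L Panc02 than in Panc02 tumours in asGM1+ cells by 1.35 ± 0.28 (edgeR adjusted p = 0.0214), the largest such difference among the members. In asGM1- cells the difference was 0.73 ± 0.28 (edgeR adjusted p = 0.168). Between fractions Tox differed by 0.01 ± 0.28 in Panc02 tumours and by 0.62 ± 0.28 in Flt3L Panc02 tumours (edgeR adjusted p = 0.999 and 0.191).

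The first comparison asked how asGM1+ differed from asGM1- CD8+ cells in Panc02 tumours. Btla was the 1 member called, and it was lower. Over all genes tested, 0.892% were called in either direction (0.049% higher and 0.843% lower). The median difference of the 9 members was -0.30, beside 0.02 over all genes tested. Fitted values of Cd160, Vsir, Ctla4, Lag3 and Tigit were also negative, at -0.73 to -0.16, and those of Havcr2, Pdcd1 and Tox were positive. Libraries with the same number in the labels varied together in these 6 libraries, though some libraries of different tumour types did so as closely. The block by number called 2 members, Btla and Cd160, lower, as did DESeq2 (Cd160 adjusted p = 0.00168). With the block nested in tumour type Cd160 was not called (edgeR adjusted p = 0.0648). Under scaling to T cell identity genes the 1 member called was Cd160 (-0.56, edgeR adjusted p = 0.0307) and not Btla.

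In Flt3L Panc02 tumours Pdcd1 was higher and Btla lower in asGM1+ cells, and 7 members were not called. Of all genes tested 8.59% were called, 2.77% higher and 5.83% lower. Their median was -0.01, beside a median of 0.54 for the members, 7 of which had positive values. Havcr2 at 1.005, Lag3 at 0.77, Tox at 0.62 and Ctla4 at 0.54 were not called in this fit. The fractions did not overlap for Havcr2, Lag3 and Tox and overlapped for Ctla4. DESeq2 called Havcr2 and Lag3 higher (adjusted p = 0.0103 and 0.0138). With the replicate number as a block Lag3 was called (edgeR adjusted p = 0.0123). With the block nested in tumour type Havcr2, Lag3 and Tox were called (edgeR adjusted p = 0.0086, 0.0215 and 0.0335). Ctla4 was called in none of these alternatives. Scaling the libraries to 15 genes of T cell identity moved the median of all genes to -0.35 and the split of calls from 565 higher and 1189 lower to 77 and 2092. Pdcd1 (0.54) and Btla (-1.57) were called in the same directions under it, Cd160 was then called lower (-0.56, edgeR adjusted p = 0.00574), and the small positive value of Vsir turned to -0.28 without a call.

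Averaged over both tumour types, Pdcd1 (0.49 ± 0.13, edgeR adjusted p = 0.0443) and Havcr2 (0.82 ± 0.22) were higher in asGM1+ cells, and Btla (-1.25 ± 0.13, edgeR adjusted p = 0.000166) and Cd160 (-0.46 ± 0.11, edgeR adjusted p = 0.0301) were lower. These 4 calls of 9 stand beside 6.19% called over all genes tested, 1.68% higher and 4.51% lower. The calls of Pdcd1 and Havcr2 were each lost in 9 of the 12 fits that left out 1 library and that of Cd160 in 8, while Btla kept its call in all 12. With the replicate number as a block Havcr2 was not called (edgeR adjusted p = 0.0823), and with the block nested in tumour type it was (0.00382). Over all genes the split was 343 higher and 920 lower, and 97 and 779 under T cell identity scaling, where Pdcd1, Cd160 and Btla were called and Havcr2 was not.

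The comparison of tumours in asGM1- cells asked how Flt3L expression by the tumour went with these transcripts. Btla, at 0.87, was the 1 member called, and it was higher in Flt3L Panc02 tumours. Of all genes tested 3.7% were called, 1.86% higher and 1.84% lower, and the median was 0.0016 beside 0.38 for the members. Tox, Cd160, Tigit, Vsir and Ctla4 had positive values of 0.73 to 0.17, and Havcr2, Pdcd1 and Lag3 had negative ones. Beside Btla, DESeq2 called Cd160 higher and Havcr2 lower (adjusted p = 0.0462 and 0.0473). The call of Btla was lost in 4 of 6 fits without 1 library, and under T cell identity scaling (edgeR adjusted p = 0.139), where Cd160 was called instead (0.49, edgeR adjusted p = 0.0438).

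In asGM1+ cells 6 members were higher in Flt3L Panc02 than in Panc02 tumours: Tox, Cd160, Tigit, Vsir, Btla and Lag3. Their differences lay between 0.87 and 1.35, and 6.25% of all genes tested were called, 2.05% higher and 4.2% lower. The median over the members was 0.92, beside -0.03 over all genes tested. Ctla4 at 1.03 and Pdcd1 at 0.54 were not called (edgeR adjusted p = 0.0936 for Pdcd1), and Havcr2 had the 1 negative value. DESeq2 and the fit with a replicate block each called 8 members higher, adding Ctla4 (adjusted p = 0.0085 by DESeq2 and 0.00797 by edgeR with the block) and Pdcd1 (0.0306 and 0.0119). Cd160 and Vsir kept their calls in every fit that left out 1 of the 6 libraries; Lag3 lost its call in 5 of these fits, Tigit in 4, and Btla and Tox in 3 each.

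The same comparison moved with 2 settings. Fitted on its own 6 libraries it called 1 gene of all and no member, with edgeR adjusted p-values of 0.0507 to 0.0594 for the 6, while 4515 genes had an unadjusted p under 0.05. Under T cell identity scaling the median of all genes was -0.55, the split of calls went from 418 higher and 858 lower to 124 and 6156, and members were called at 0.49 for Cd160, 0.40 for Vsir and -0.96 for Havcr2. The other 6 members had values of 0.03 (Pdcd1) to 0.83 (Tox) under it, without a call. The summed T cell identity genes themselves were at 19321 ± 2866 CPM (SD, n = 3) in Flt3L Panc02 asGM1+ cells and at group means of 13405 to 15154 CPM elsewhere. Of the 15 genes, 5 were called higher between tumours in asGM1+ cells, beside 2.05% of all genes tested. Whether this difference has a part in the members' levels was not tested.

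**Figure D2:**
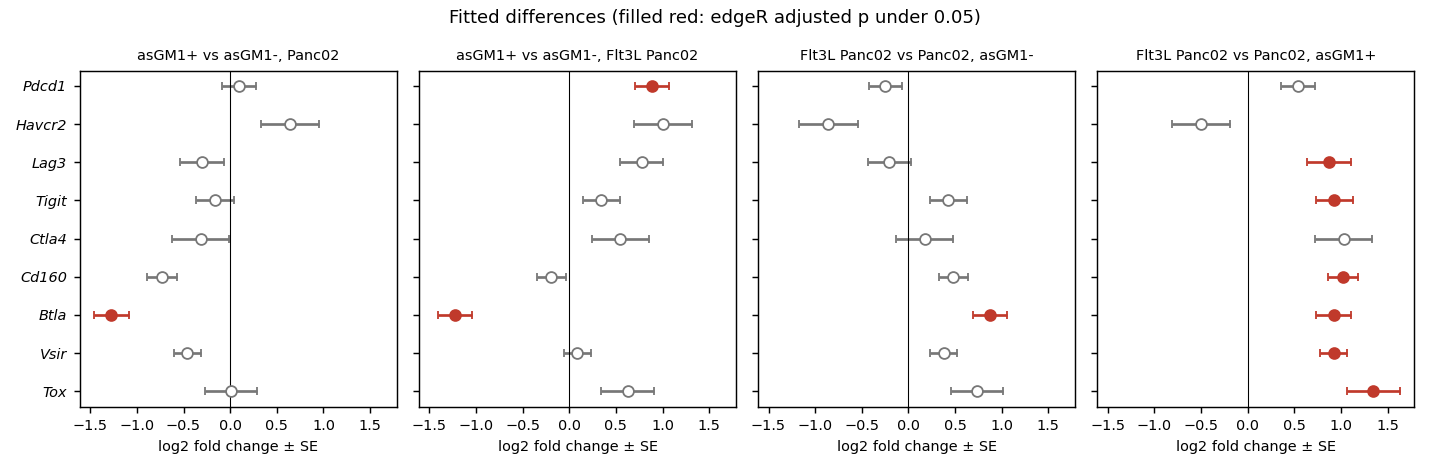
Fitted log2 fold change of each member (x axis, with its standard error as the bar) in the comparisons of fractions within a tumour type and of tumour types within a fraction. Filled red points have an edgeR adjusted p under 0.05: Btla in all 4 panels, Pdcd1 between fractions in Flt3L Panc02 tumours, and 6 members between tumours in asGM1+ cells.

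**Figure D3:**
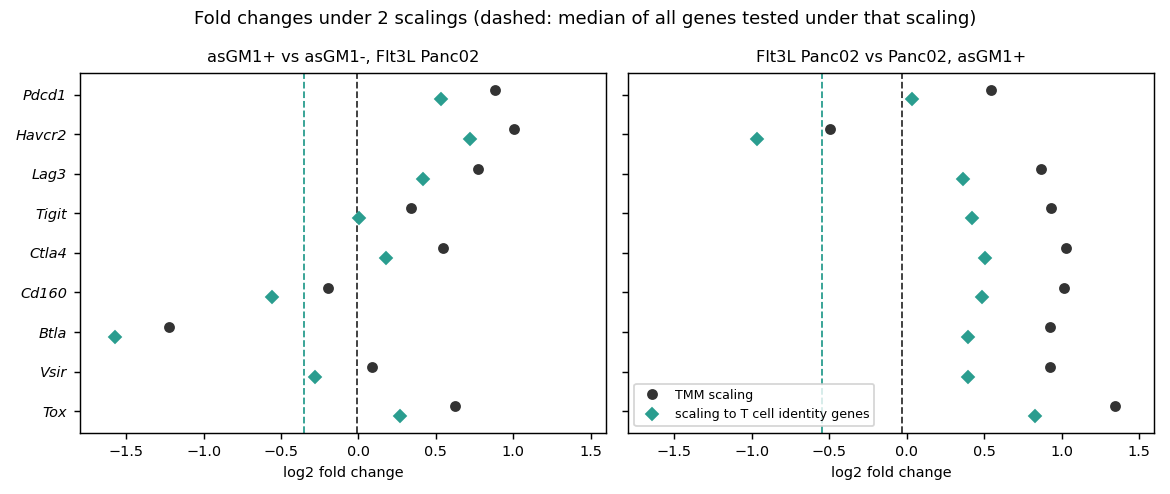
Fitted log2 fold change of each member under TMM scaling (circles) and under scaling to the summed T cell identity genes (diamonds), with dashed lines at the median of all genes tested. T cell identity scaling moves all 9 members down in both panels, with the medians of all genes at -0.35 and -0.55.

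Whether the difference between fractions itself changed with the tumour was tested as an interaction. No member was called by edgeR without a replicate block, beside 0.367% of all genes tested (0.0343% higher and 0.333% lower). At an unadjusted p under 0.05 there were 4 members, Lag3, Pdcd1, Vsir and Cd160, and DESeq2 called 1, Lag3 (DESeq2 adjusted p = 0.0441). Among all 20411 genes, 3030 had an unadjusted p under 0.05 and DESeq2 called 862. The largest estimates were 1.07 ± 0.33 for Lag3 (edgeR adjusted p = 0.177), 0.86 ± 0.43 for Ctla4 and 0.79 ± 0.25 for Pdcd1 (edgeR adjusted p = 0.193). For Btla the estimate was 0.05 ± 0.26. With the replicate number as a block Pdcd1 was called (edgeR adjusted p = 0.0379, and 0.0224 with the block nested in tumour type), so whether its difference between fractions changed with the tumour depends on the block. Under T cell identity scaling the interaction values were 0.55 for Lag3, 0.30 for Ctla4, 0.26 for Pdcd1, 0.0029 for Vsir and -0.0039 for Cd160, and no member was called.

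Of 17 listed ligands of the receptors, 13 passed the filter on low counts, and their calls are read beside the shares over all genes given above (0.892%, 8.59%, 3.7% and 6.25% in the 4 comparisons). None was called between fractions in Panc02 tumours (2 at an unadjusted p under 0.05, none by DESeq2), 1 was lower in Flt3L Panc02 tumours, and none was called between tumours in either fraction (3 and 4 at an unadjusted p under 0.05, 1 and 2 by DESeq2). Between fractions in Panc02 tumours, 2040 of all 20411 genes had an unadjusted p under 0.05 and DESeq2 called 598. Between tumours, 4137 genes in asGM1- and 4973 in asGM1+ cells had such a p, and DESeq2 called 2207 and 2979. T cell identity scaling called 5 of the 13 lower in Flt3L Panc02 than in Panc02 asGM1+ cells. That scaling called 6156 of all 20411 genes lower in the same comparison. The gene called lower between fractions was Ceacam1, a TIM-3 ligand, at -4.63 ± 0.64 (edgeR adjusted p = 0.00164). Between fractions of Flt3L Panc02 tumours, Cd274 (PD-L1) was at -0.40 ± 0.17, Pdcd1lg2 (PD-L2) at 0.23 ± 0.20, Lgals9 (galectin-9) at -0.13 ± 0.12, and Tnfrsf14 (HVEM) at -0.31 ± 0.29, none of them called. The TIGIT ligands Pvr (-0.01 ± 0.14) and Nectin2 (0.19 ± 0.48) and the CTLA-4 ligands Cd80 (0.09 ± 0.29) and Cd86 (0.44 ± 0.16) were not called either. The median of the list was 0.14 there, beside -0.01 over all genes tested.

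Among 14 activating or costimulatory counterparts and related receptors, Cd244a, a receptor of the SLAM family, was higher in asGM1+ cells in both tumour types, by 0.69 ± 0.12 in Panc02 and 0.97 ± 0.12 in Flt3L Panc02 tumours (edgeR adjusted p = 0.0174 and 0.000807). Pvrig, an inhibitory receptor for a nectin ligand, was higher in Flt3L Panc02 tumours by 0.997 ± 0.23, and Tnfsf14, the HVEM ligand LIGHT, was lower in Panc02 tumours at -0.97 ± 0.19. In all, 1 gene was higher and 1 lower in Panc02 tumours and 2 were higher in Flt3L Panc02 tumours. Over all genes tested, 0.049% were higher and 0.843% lower in Panc02 tumours, and 2.77% were higher in Flt3L Panc02 tumours. Cd226, the activating partner of TIGIT, was at -0.49 ± 0.10 in Panc02 tumours (edgeR adjusted p = 0.0535) and was called lower in the average of both tumour types at -0.30 ± 0.07 (edgeR adjusted p = 0.0308). Between tumours Cd27 was higher in both fractions (0.49 and 0.80), Cd28 in asGM1- cells (0.66) and Cd2 in asGM1+ cells (0.63). These are 2 of 14 called higher in each fraction, beside 1.86% of all genes tested in asGM1- and 2.05% in asGM1+ cells. T cell identity scaling called none higher in either fraction and 4 lower in asGM1+ cells. Among all 20411 genes it called 92 higher in asGM1- cells, and 124 higher and 6156 lower in asGM1+ cells. Cd2 is itself among the genes that set this scaling, so its value there is partly fixed by it. Icos was not called in any comparison, with values between -0.30 and 0.42.

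Of 18 genes of the signalling machinery that these receptors act through, Trat1, a T cell receptor adaptor, was lower in asGM1+ cells in both tumour types, at -2.20 ± 0.27 and -2.14 ± 0.27 (edgeR adjusted p = 0.00221 and 0.000914). It was the 1 gene called in Panc02 tumours, where 0.892% of all genes tested were called. In Flt3L Panc02 tumours 3 were higher and 2 lower, with Ubash3a (0.40), Ubash3b (0.64) and Ap2m1 (0.37) those higher, beside 2.77% of all genes higher and 5.83% lower. None were called higher and 2 lower there under T cell identity scaling, beside 77 higher and 2092 lower of all 20411 genes. Ptpn6, which encodes SHP1, was not called in any comparison and was at 0.30 ± 0.10 in Flt3L Panc02 tumours (edgeR adjusted p = 0.0928). Between tumours in asGM1+ cells 6 of 18 were higher, beside 2.05% of all genes tested. Among the 6 were Csk at 0.81, Lck at 0.53, Ubash3a at 0.39 and Ptpn11, which encodes SHP2, at 0.46. Under T cell identity scaling none of these 6 was called, 2 genes of the list were lower, and Ptpn11 (-0.05) and Ubash3a (-0.12) changed sign. That scaling called 124 of all 20411 genes higher and 6156 lower in the same comparison. Lck is itself 1 of the 15 genes that set this scaling, so its value there is partly fixed by it.

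Other inhibitory receptors split in direction. Of 16, none was called by edgeR between fractions in Panc02 tumours, beside 0.892% of all genes tested. At an unadjusted p under 0.05 there were 5, beside 2040 of all 20411 genes. DESeq2 called 1 of the list, beside 598 of all genes. In Flt3L Panc02 tumours 2 were higher and 3 lower, beside 2.77% and 5.83% of all genes tested. Those higher included Entpd1, the ectoenzyme CD39, at 1.20 ± 0.21 (edgeR adjusted p = 0.00536). Those lower were Lair1, a collagen receptor, at -2.68 ± 0.26, Cd300a at -3.03 ± 0.42 and Siglecg at -5.43 ± 0.96. Between tumours in asGM1+ cells 3 of 16 were higher, with Ly9 at 1.17 ± 0.21, and Lilrb4a (-1.21) and Lilrb4b (-0.97), which are also carried by myeloid cells, were lower. Of all genes tested, 2.05% were higher and 4.2% lower in that comparison. T cell identity scaling gave 1 higher and 5 lower in that comparison, with Lilrb4a and Lilrb4b among the lower. Among all 20411 genes it gave 124 higher and 6156 lower.

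Of 25 regulators of the exhaustion programme, 24 passed the filter on low counts. Tcf7, the factor TCF-1 of stem-like and memory T cells, was lower in asGM1+ cells, at -2.05 ± 0.24 in Panc02 and -1.58 ± 0.23 in Flt3L Panc02 tumours (edgeR adjusted p = 0.00148 and 0.00231). Lef1, a related factor, was lower at -1.18 and -1.35. These 2 were the calls in Panc02 tumours, where 0.843% of all genes tested were lower. In Flt3L Panc02 tumours 3 were higher and 6 lower, among them Ikzf2 at -1.42 and Maf at -1.81, beside 2.77% and 5.83% of all genes. With T cell identity scaling none were called higher and 7 lower there, beside 77 higher and 2092 lower of all 20411 genes. Between tumours in asGM1+ cells 6 were higher and 1 lower, beside 2.05% and 4.2% of all genes tested, and 2 were higher and 5 lower under T cell identity scaling. That scaling called 124 of all 20411 genes higher and 6156 lower in the same comparison. Tcf7 was higher in Flt3L Panc02 tumours there by 1.66 ± 0.23 (edgeR adjusted p = 0.00579) and Tox2, a relative of Tox, by 2.20 ± 0.46 (edgeR adjusted p = 0.0211), and both were also called under T cell identity scaling. Ikzf3 at 0.76 was higher and Zeb2 at -0.97 lower. Eomes, a T-box factor of CD8+ memory and NK cells, was not called in any comparison, with 0.53 ± 0.16 between tumours in asGM1- cells (edgeR adjusted p = 0.0957).

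Markers of other cell types moved with the fractions and tumours. Foxp3, the defining factor of regulatory T cells, which carry Ctla4 and Tigit, had group means of 61.8 and 7.94 CPM in asGM1- and asGM1+ cells of Panc02 tumours and of 26.6 and 9.99 CPM in Flt3L Panc02 tumours. Cd4 had means of 7.59 and 3.05 CPM in Panc02 and 28.1 and 4.77 CPM in Flt3L Panc02 tumours. Both were called lower in asGM1+ cells in both tumour types, as were 6 and 5 of 12 genes of the CD4 and regulatory T cell list. Of all genes tested, 0.843% and 5.83% were called lower. In asGM1- cells the mean of Foxp3 was lower and that of Cd4 higher in Flt3L Panc02 than in Panc02 tumours. The summed list was at 1307 to 1515 CPM in Panc02 asGM1- cells, 800.6 to 933 CPM in Panc02 asGM1+ cells, 948 to 1135 CPM in Flt3L Panc02 asGM1- cells and 896 to 948 CPM in Flt3L Panc02 asGM1+ cells. Ccr8, a gene of the list, had means of 298, 198, 255 and 261 CPM in these groups, so the sum does not follow Foxp3 and Cd4 alone.

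Siglech, a marker of plasmacytoid dendritic cells, had group means of 51.2 and 1.65 CPM in asGM1- and asGM1+ cells of Panc02 tumours and 268 and 2.83 CPM in those of Flt3L Panc02 tumours. It was lower in asGM1+ cells in both, with 8 and 9 of 14 genes of its list called lower, beside 0.843% and 5.83% of all genes tested. Not all listed genes fell as far. Bst2 had means of 140 and 112 CPM in asGM1- and asGM1+ cells of Panc02 tumours and 156 and 109 CPM in those of Flt3L Panc02 tumours. The sum is therefore no measure of these cells alone. It was highest in Flt3L Panc02 asGM1- cells, at 1753 to 1906 CPM against 772 to 1163 CPM in the other groups. Btla had its highest level in the same group. The 12 conventional dendritic cell genes summed to 1599 to 2572, 1611 to 5117, 1864 to 2110 and 1387 to 1628 CPM in the 4 groups in the order given at the start. The 12 B and plasma cell genes summed to 219 to 794.5 CPM over the 12 libraries and were highest in Flt3L Panc02 asGM1- cells. The part of these cell types in the Btla differences was not tested.

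The 20 macrophage and monocyte genes, a cell type that carries Havcr2 and Vsir, summed to 2361 to 2751 CPM in Panc02 asGM1- cells, 2427 to 5122 CPM in Panc02 asGM1+ cells, 1812 to 2784 CPM in Flt3L Panc02 asGM1- cells and 2029 to 2847 CPM in Flt3L Panc02 asGM1+ cells. Between tumours in asGM1+ cells 6 of 20 were lower, among them Csf1r at -1.69 ± 0.44 (edgeR adjusted p = 0.0434), beside 4.2% of all genes tested. Adgre1, the macrophage marker F4/80, had group means between 6.37 and 24.6 CPM. A fit chosen after seeing the data left out both Panc02 libraries numbered 1, the asGM1+ one of which held the highest sum (5122 CPM). The Panc02 asGM1+ library numbered 2, at 3756 CPM, stayed in. Of the 6 members called higher between tumours in asGM1+ cells, 4 were called in this fit (Cd160, Vsir, Tox and Btla). Over all genes, 146 were called higher in it. Of 12 NK cell genes 1 was higher in asGM1+ cells of Panc02 tumours, and 3 were higher and 1 lower in Flt3L Panc02 tumours. Of 9 gamma delta T cell genes tested 3 and 5 were lower. Over all genes tested, 0.049% were higher and 0.843% lower in Panc02 tumours, and 2.77% and 5.83% in Flt3L Panc02 tumours. Neutrophil genes summed to 6.48 to 31.0 CPM over the 12 libraries, and epithelial and stromal genes to 113 to 629.7 CPM. The part of these cells in the Havcr2 and Vsir levels was not tested.

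**Figure D4:**
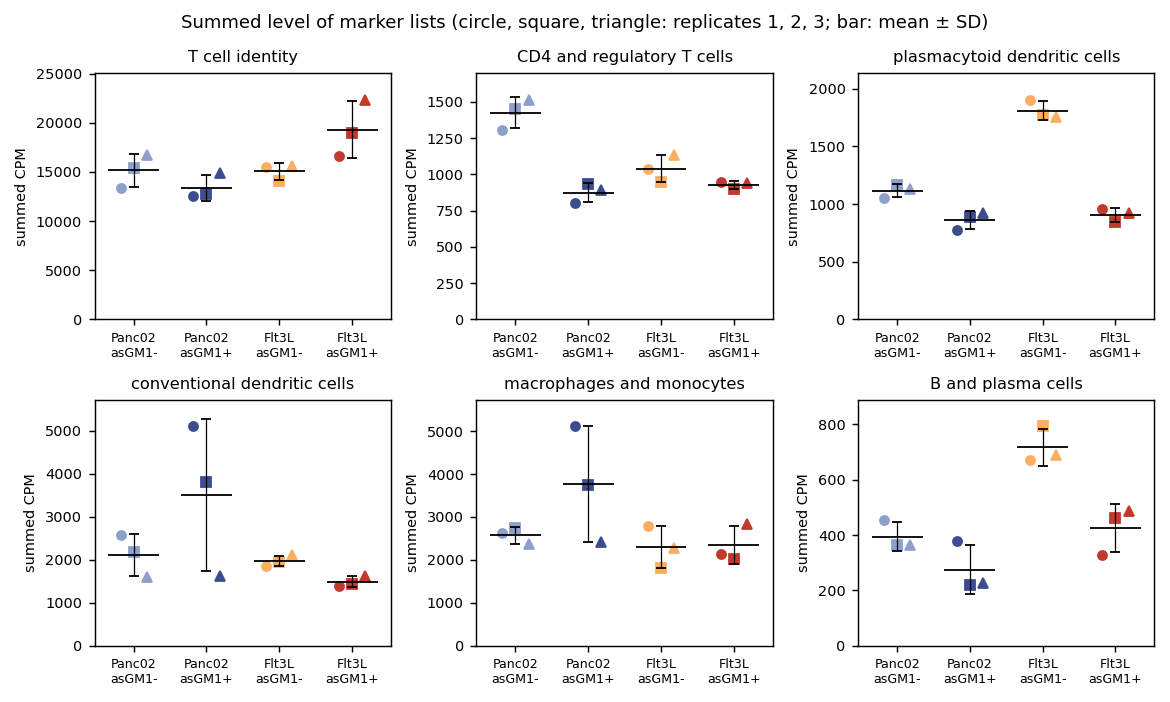
Summed level of 6 lists of marker genes in TMM-scaled CPM, on linear axes from 0, by group. Each symbol is 1 library (circle, square and triangle for replicates 1, 2 and 3), with the group mean and SD as bars; regulatory T cell and plasmacytoid dendritic cell sums are higher in asGM1- than asGM1+ cells of the same tumour by their means, and the T cell identity sum is highest in Flt3L Panc02 asGM1+ cells.

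Some members share genomic sequence with other genes in the GENCODE annotation of GRCm38, and whether the counting used strand is not stated in the labels. Cd160 overlaps Pdzk1 on the opposite strand, which was at 0.521 to 2.17 CPM. Vsir lies within the span of Cdh23 on the opposite strand, at 1.22 to 6.69 CPM. Tox overlaps the antisense gene Gm11802, listed at 0 to 0.222 CPM, and Ctla4 overlaps the pseudogene Rpl18-ps1 on the same strand, at 9.33 to 22.0 CPM. How reads were split between overlapping genes is uncertain.

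The genes whose pattern over the 12 libraries lay nearest to each member were found among 9314 genes at 5 CPM or more on average, as the root mean square difference between log2 levels centred on each gene's own mean. The libraries share groups and composition, so nearness is a description. Pdcd1 was nearest to Ctsd, which encodes the lysosomal protease cathepsin D (0.13 log2 units), and Havcr2 to Ifng, which encodes interferon gamma (0.24). Lag3 was nearest to Lrp10 (0.12), Tigit to Ucp2 (0.20), Ctla4 to Sdcbp2 (0.20) and Cd160 to Fam189b (0.13). Btla was nearest to Cd40lg, the CD40 ligand best known from CD4+ T cells (0.23), Vsir to the kinase gene Pim2 (0.11) and Tox to Spry1 (0.29). The same quantity for a member against a flat line, its own SD, ran from 0.38 for Pdcd1 to 0.74 for Btla.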

How the data were processed

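RNA-seq counts of 12 libraries of sorted mouse CD8+ T cells were analysed, in 4 groups of 3, with groups and replicate numbers taken from the sample titles. The tools HISAT2 and StringTie and the build mm39 are named, without versions or roles, per the submitters' processing notes. TRIzol and 2 kits, TruSeq mRNA and SMARTer ultra low input, appear in the labels' protocols. The authors deposited an estimated count per gene (whole numbers, not scaled further), made with the tools above per the submitters' processing notes. Small values peaked in steps of about 2.71 (2.67 to 2.75 described them equally well), so 1 fragment may be worth more than 1 count. Totals lay between 98663008 and 102896605 counts, and the smallest member count, 598, leaves counting error small beside the spread between libraries.

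Counts were fitted with edgeR 4.0.16 in R 4.3.3 (TMM scaling, filterByExpr by group, 20411 of 56980 genes kept, 1 quasi-likelihood model of the 4 group means over all 12 libraries). P-values were Benjamini-Hochberg adjusted over all genes tested, and standard errors were derived from the fitted difference and its F statistic. The 6 comparisons were fractions within each tumour type, their average, tumours within each fraction, and the interaction; those that share a group are not independent. The pipeline was tested on simulated data. The members and gene lists were chosen with earlier results of these data known.

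All members are named in every comparison, with up to 4 called genes per pathway list by p and a fixed panel of ligands, counterparts and markers. The labels do not state that replicate numbers pair libraries. Deviations from group means over 10169 genes correlated at 0.41, 0.34 and 0.42 between same-numbered Panc02 fractions. In Flt3L Panc02 tumours the values were 0.06, 0.55 and -0.05. Differently numbered Panc02 fractions correlated at -0.35 to 0.04, but libraries of different tumour types at -0.44 to 0.45. Values of this size therefore cannot show that the numbers pair libraries. The main fit took no account of replicate number in either tumour type, and blocks by number were alternatives. Alternatives were DESeq2 1.42.0, other scalings, no filter on low counts, fits of the compared libraries only, blocks by replicate number and leaving out libraries. Promoter windows and overlaps came from RefSeq and GENCODE tables on GRCm38, and no coordinates were converted.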

Additional observations from a re-analysis of the deposited data

Results flagged for a closer look

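Lair1, a collagen receptor on the list of other inhibitory receptors, differed between tumour types in how its level changed with the asGM1 fraction. The interaction was -2.24 ± 0.34 on the log2 scale (edgeR quasi-likelihood test, adjusted p = 0.0238). Its group means were 35.2 CPM in asGM1- and 25.9 CPM in asGM1+ cells of Panc02 tumours, and 92.6 and 14.4 CPM in those of Flt3L Panc02 tumours. Plasmacytoid dendritic cell transcripts were highest in the same Flt3L Panc02 asGM1- group, and their part in this result was not tested. Of the 9 members none had an interaction past the threshold in this fit.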

How the results depend on the processing

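The 20411 genes gave 182 calls between fractions in Panc02, 1754 in Flt3L Panc02, 1263 in their average, 756 and 1276 between tumours in asGM1- and asGM1+ cells, and 75 in the interaction. In that order DESeq2 called 598, 3215, 2342, 2207, 2979 and 862 genes. T cell identity scaling gave 97 in Panc02, 173 and 6280 between tumours and 162 in the interaction. Without the filter on low counts 390 and 691 were called between tumours and 40 in the interaction. Fits of the compared libraries gave 118 in Panc02, 1094 in Flt3L Panc02 and 1 between tumours in asGM1+ cells. Without both Panc02 libraries numbered 1, chosen after seeing the data, they were 107 in Panc02, 481 and 402 between tumours and 27 in the interaction. Leaving out 1 library gave 94 to 226, 768 to 1942, 809 to 1589, 94 to 959, 215 to 1737 and 1 to 257. The lowest counts came without Panc02 asGM1+ replicate 2, Flt3L Panc02 asGM1- replicate 2 (Flt3L Panc02 and the average), Panc02 asGM1- replicate 2 (asGM1- tumours and the interaction), Flt3L Panc02 asGM1- replicate 1 (also 1 in the interaction) and Flt3L Panc02 asGM1+ replicate 2, and 257 without Panc02 asGM1+ replicate 3.

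Of the 9 members, 1, 2, 4, 1, 6 and 0 were called in the same order. DESeq2 called 2 in Panc02, 4 in Flt3L Panc02, 3 in asGM1- and 8 in asGM1+ tumours and 1 in the interaction. Fits of the compared libraries called 0 in Panc02 and 0 between tumours in asGM1+ cells, and T cell identity scaling called 3 there. No filter gave 1 in the average, and leaving out both Panc02 libraries numbered 1 gave 0 in Panc02 and 1 in the average. Dividing counts by the fragment step, also chosen after seeing the data, gave 2 in Panc02. Leaving out 1 library gave 1 to 3 in Flt3L Panc02, 1 to 3 in the average, 0 to 1 in asGM1- tumours and 2 to 7 in asGM1+ tumours. Over the single members, 754 values kept direction and side of the threshold under an alternative, 71 called ones were no longer called, 25 became called, 23 that were never called changed sign, and no called value reversed. The cause of these changes was not tested.

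With the replicate block the members called were 2 in Panc02 tumours, 3 in Flt3L Panc02 tumours, 3 in the average (Havcr2 lost, edgeR adjusted p = 0.0823), 8 between tumours in asGM1+ cells and 1 in the interaction (Pdcd1, edgeR adjusted p = 0.0379), with 135 genes called in the interaction. With a block nested in tumour type, added after seeing the data, they were 5 in Flt3L Panc02 tumours and 1 in the interaction (Pdcd1, edgeR adjusted p = 0.0224), with 204 genes. In Flt3L Panc02 tumours libraries did not all correlate best with their own number. Among the Panc02 differences between fractions the block changed no other member's call.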
